A study of Homo sapiens with 22 samples.

Results

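The regions described here were those enriched for H3R2me2a, asymmetric dimethylation of arginine 2 on histone H3, whose nearest transcript belonged to a histone gene. They were chosen by the gene name that the authors gave to each region (HIST followed by a digit, or H2AF, H3F3, H1F or CENPA at the start of the name). This rule used no tag count, but it was set with earlier results of these data known. The rule took 66 of 8819 regions, and these 66 named 59 genes. Chromatin immunoprecipitation and sequencing had been run on NT2/D1, a pluripotent line of human embryonal carcinoma cells in which all-trans retinoic acid (ATRA) starts differentiation. Of the series' 22 samples, 2 gave these regions: CRISPR control cells without ATRA and the same control cells after 1 µM ATRA for 3 days, each immunoprecipitated for H3R2me2a with a rat monoclonal antibody made in the submitters' laboratory. The lists hold no expression values, so the labelled cell type was not checked against marker genes. Samples of cells deleted for PRMT6, the enzyme that places this mark, were not analysed here. With 1 library per condition, no value below has a replicate check, and intervals cover counting error only. They treat regions as independent, although many are neighbours and some genes are copies of each other.

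The authors had sorted their regions into 3 clusters and, separately, into a promoter and an enhancer class. Clusters I and II were deposited under the library without ATRA and cluster III under the library with ATRA. Each region of the promoter and enhancer lists carried a tag count that the file headers call tagcount. Its library is not named, although both lists were deposited under the library with ATRA. At the 202 cluster I regions, of the library without ATRA, it exceeded the tags given by the peak caller MACS by 0 to 8 (median 3). Cluster III regions also carried MACS tags of their own, which exceeded tagcount at 98.4% of them. Tagcount thus stayed close to the count without ATRA at cluster I and lay below the count listed with ATRA at cluster III. No label states that it was read without ATRA. Sequencing depth is unknown, and counts were not corrected for the copy number of chromosomes. Region coordinates are on hg19.

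Histone genes are either replication-dependent or variant. Replication-dependent genes, with names that start with HIST, lie packed together in gene clusters, chiefly HIST1 on chromosome 6 and HIST2 on chromosome 1, and supply the H1, H2A, H2B, H3 and H4 proteins in bulk while DNA is copied. They lack introns, many are arranged as divergent neighbours that share a promoter, and their transcripts end in a stem-loop in place of a poly(A) tail. Variant genes such as H3F3A (H3.3), H2AFY (macroH2A1) and H1F0 (H1.0) lie alone, are expressed outside S phase as well, and encode proteins that replace the bulk histones at particular sites.

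Promoter sequences were at hand for 47 of the 59 named genes (RefSeq windows of GRCh38.p14, 250 bases before to 50 after the gene start). Those of 6 genes are printed because the results turn on them. HIST2H2AC and HIST4H4 headed the regions by tagcount and by MACS tags, HIST1H4K had the densest tags per kb, HIST1H2BC was the non-H4 gene that came closest to the H4 genes, HIST1H3B stands for the H3 genes, and H3F3A for the variants. The last 4 were picked after their values were seen. Capitals mark matches, on either strand, to 7 short motifs: CCAAT, the TATA sequence TATAAA, the octamer ATTTGCAT, AAACACA, CGGACGTT, TTTGGCGC and TTTCCCGC, none of which contains another. The windows lie at chr1:149886668-149886967, plus strand (HIST2H2AC), chr12:14771082-14771381, minus strand (HIST4H4), chr6:27831511-27831810, minus strand (HIST1H4K), chr6:26123877-26124176, minus strand (HIST1H2BC), chr6:26032050-26032349, minus strand (HIST1H3B) and chr1:226061581-226061880, plus strand (H3F3A), and each reads 5′ to 3′ along its gene.
HIST2H2AC: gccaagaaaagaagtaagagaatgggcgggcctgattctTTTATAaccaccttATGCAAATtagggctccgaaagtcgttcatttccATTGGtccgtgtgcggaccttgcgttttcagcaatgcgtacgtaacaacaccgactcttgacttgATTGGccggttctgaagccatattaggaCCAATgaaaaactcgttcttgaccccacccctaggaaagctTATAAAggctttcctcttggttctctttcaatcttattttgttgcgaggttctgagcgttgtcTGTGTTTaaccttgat
HIST4H4: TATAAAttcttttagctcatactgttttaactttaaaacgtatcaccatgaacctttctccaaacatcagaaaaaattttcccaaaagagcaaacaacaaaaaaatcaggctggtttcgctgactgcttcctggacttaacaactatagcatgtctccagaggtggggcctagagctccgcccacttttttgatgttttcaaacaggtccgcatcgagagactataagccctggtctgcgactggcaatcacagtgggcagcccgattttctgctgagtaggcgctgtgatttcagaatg
HIST1H4K: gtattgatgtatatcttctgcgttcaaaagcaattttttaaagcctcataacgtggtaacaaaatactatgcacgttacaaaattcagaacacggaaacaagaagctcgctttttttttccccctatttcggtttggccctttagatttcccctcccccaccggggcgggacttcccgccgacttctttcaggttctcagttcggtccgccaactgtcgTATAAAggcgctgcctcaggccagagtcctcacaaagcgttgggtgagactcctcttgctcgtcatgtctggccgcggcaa
HIST1H2BC: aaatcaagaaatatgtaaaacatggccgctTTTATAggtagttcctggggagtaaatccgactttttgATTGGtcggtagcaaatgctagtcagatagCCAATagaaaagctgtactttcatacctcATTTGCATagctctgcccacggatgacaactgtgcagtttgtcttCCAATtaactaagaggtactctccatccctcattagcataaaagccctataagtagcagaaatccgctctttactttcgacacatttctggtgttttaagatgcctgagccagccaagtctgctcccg
HIST1H3B: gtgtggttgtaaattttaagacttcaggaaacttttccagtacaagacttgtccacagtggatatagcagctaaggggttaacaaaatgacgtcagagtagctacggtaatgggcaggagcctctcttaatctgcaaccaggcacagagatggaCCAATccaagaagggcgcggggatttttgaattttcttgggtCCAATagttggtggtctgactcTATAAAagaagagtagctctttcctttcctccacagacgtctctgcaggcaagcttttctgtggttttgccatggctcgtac
H3F3A: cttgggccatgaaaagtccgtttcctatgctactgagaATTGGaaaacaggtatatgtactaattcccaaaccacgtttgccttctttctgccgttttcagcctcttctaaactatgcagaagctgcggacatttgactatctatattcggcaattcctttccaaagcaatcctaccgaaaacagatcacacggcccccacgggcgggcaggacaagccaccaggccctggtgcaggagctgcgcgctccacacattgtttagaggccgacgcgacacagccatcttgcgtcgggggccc

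In these windows the H4 genes stood apart from the other clustered histone genes in CCAAT, the letters bound by the NF-Y factor. CCAAT occurred in 9 of 9 H2A, 12 of 12 H2B, 9 of 9 H3 and 3 of 3 H1 windows, but in 2 of 11 H4 windows (18.2%). It occurred in 35.7% of all 27305 promoter windows. TATAAA was present in 28 of the 47 histone windows (59.6%) against 12% of all windows. The octamer, which OCT factors bind, was present in 8 of 12 H2B windows, 5 of 9 H2A windows, 1 of 9 H3 windows and 0 of 11 H4 windows, against 1.8% of all windows. The H3 window was that of HIST1H3D, which was identical to that of HIST1H2AD at 300 of 300 positions. This shared sequence is counted under both H3 and H2A for CCAAT as well. AAACACA, known from H1 promoters, was present in 3 of 3 H1 windows, in 5 of the 47 (10.6%) and in 5.76% of all windows. The letters CGGACGTT, TTTGGCGC and TTTCCCGC were in none of the 47 windows and in 0.183%, 0.659% and 1.66% of all. In the printed sequences, TATAAA begins 31 bases before the start of HIST1H4K, 32 before that of HIST1H3B and 29 before that of HIST2H2AC. It also begins 250 bases before the start of HIST4H4 and, on the opposite strand, 220 before HIST1H2BC and 211 before HIST2H2AC. The count of 28 windows takes matches at any position and on either strand. HIST1H2BC holds CCAAT matches that begin 182, 152 and 78 bases before its start and an octamer 123 bases before it. HIST4H4 holds no CCAAT. A match is a run of letters and not a measured binding site.

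Most histone gene regions were in cluster II. Of the 66, 48 were in cluster II (72.7%, exact Clopper-Pearson 95% interval 60.4 to 83), 17 in cluster III (25.8%, 15.8 to 38) and 1 in cluster I (1.52%, 0.0384 to 8.16). Over all regions the shares were 23.8%, 73.9% and 2.29%. Promoter-class regions were more often in cluster II than others, so the share was also taken within that class: 46 of 62 promoter-class histone regions were in cluster II (74.2%, 61.5 to 84.5), against 35.5% of all promoter-class regions, and 15 were in cluster III (24.2%, 14.2 to 36.7), against 63.9%. The kinds of gene are given apart, with no test of their difference. Of the 57 regions at HIST-named genes 47 were in cluster II (82.5%, 70.1 to 91.3), whereas of the 9 at variant names 7 were in cluster III, 1 in cluster II and 1 in cluster I. Clusters I and II hold no region under 35 tags by tagcount, and among regions with 35 tags or more 84.2% of histone regions (48 of 57) and 51.8% of all were in cluster II. Without chromosome 6, which holds HIST1, cluster II and cluster III held 11 regions each (47.8%) of the remaining 23. Over all regions without that chromosome the shares were 23.4% and 74.3%.

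**Figure D1:**
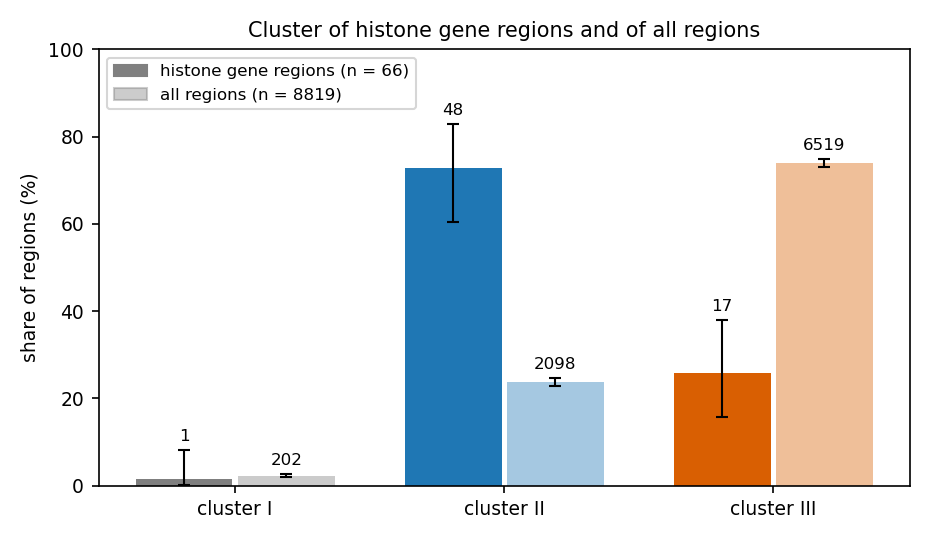
Share of regions in each cluster (y axis, percent) for the 66 histone gene regions (full colour) and all 8819 regions (pale), with exact 95% intervals as bars and the number of regions above each. Histone gene regions were mostly in cluster II (48 of 66) and all regions mostly in cluster III (6519 of 8819).

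Nearly all histone gene regions were in the authors' start windows. The promoter class held 62 of 66 (93.9%, 85.2 to 98.3), against 48% of all regions. Within cluster II it held 46 of 48, against 71.6% of all cluster II regions, and within cluster III 15 of 17, against 41.5%. The authors' start window held 62 of 66 (53.3% of all regions), and 58 lay within 1000 bp of a start (50.5% of all). Members were chosen by the names of packed genes, so nearness to a start follows in part from that choice. In the other class, 4 regions were listed as enhancers. One of them, at HIST1H4C (chromosome 6, 26103837 to 26104818), lay in a start window at 26 bp from the start and had 280 tags, so its position was that of the other H4 regions. The remaining 3 lay far from the start of the variant name given: the signed distance was 18627 bp for H3F3C, -11583 bp for the H2A.Z pseudogene H2AFZP5 and -3062 bp for the H2A.Z pseudogene H2AFZP3.

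Along the chromosomes the regions fell into dense blocks. Blocks were cut at gaps over 300 kb and run from their first to their last histone region. Their density therefore follows in part from the choice of members by the names of packed genes. HIST1 held 43 regions for 38 gene names, in 3 blocks of chromosome 6. The first ran from 26020598 to 26286170 (266 kb, 25 histone regions), the second from 27099946 to 27115028 (15.1 kb, 4 regions) and the third from 27774817 to 27861090 (86.3 kb, 14 regions). These correspond to 9.41, 26.5 and 16.2 histone regions per 100 kb, against 0.143 regions of any kind per 100 kb over the span of all 243 regions on chromosome 6. Histone regions made up 17.7% of the regions on that chromosome and 37 of its 89 cluster II regions (41.6%). The main HIST2 block (chromosome 1, 149783569 to 149860279, 76.7 kb) held 9 regions, all in cluster II, or 11.7 per 100 kb against 0.656 over chromosome 1. Inside the 4 blocks 1 region had another name, U91328.2 (chromosome 6, 26044106 to 26044454, 35 tags), next to HIST1H2BB. The median gap between neighbouring histone regions ranged from 2765 bp to 6286 bp over the 4 blocks.

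Histone regions also carried more tags than their number gives. They were 0.748% of all regions and 1.27% of the bases covered, and held 8978 of 417208 tags (2.15%). Among promoter-class regions, 22 of 62 reached the 90th percentile of tagcount (125 tags; 35.5%, 23.7 to 48.7), against 10.1% of all, and within cluster II 21 of 46 did, against 25.5% of all. The 100 promoter-class regions with most tags included 11 of the 62 histone regions (17.7%, 9.2 to 29.5), 7 of them H4, and are 2.36% of all promoter-class regions. Regions were also wide. In cluster II, promoter-class histone regions had a median tagcount of 110 against 74 for all, and a median width of 936 bp against 537 bp. Per kb of width the order turned, with a median of 117 for histone regions and 138 for all.

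The H4 genes had the densest tags among the clustered histone genes. The 11 H4 regions of cluster II ranged from 176 to 492 tags (median 280) and from 177 to 349 tags per kb (median 209). The 36 cluster II regions at H1, H2A, H2B and H3 genes ranged from 36 to 539 tags (median 85) and from 94 to 186 tags per kb (median 112). By tags per kb 1 of these 36, HIST1H2BC at 186, reached the lowest H4 region, and 26.3% of all 2098 cluster II regions did. By tagcount 7 of the 36 reached the lowest H4 region, so the groups overlapped on that scale. Of the 36, 31 lay below the median density of all cluster II regions (134 per kb), which 50% of all lie below by construction, and none of the 11 H4 regions did. The H4 class was picked after these values were seen, and no test was made.

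**Figure D2:**
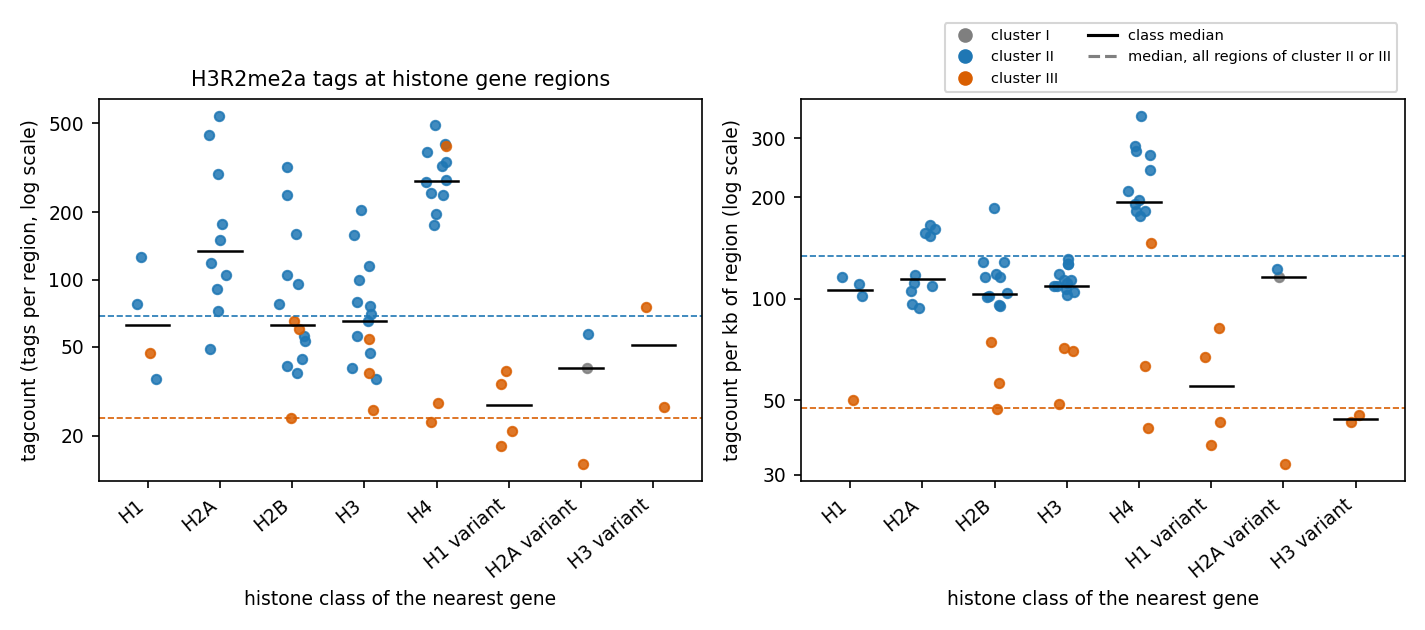
Each point is 1 region, placed by the histone class of its nearest gene; the y axes (log scale) give tagcount (left) and tagcount per kb of region width (right). Black lines are class medians and dashed lines the medians of all regions in cluster II (blue) and cluster III (orange). The 11 H4 regions of cluster II lie at 177 tags per kb or more, where 1 other clustered histone region is found.

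H4 encodes the partner of H3 in the nucleosome core. On chromosome 6 the H4 regions of cluster II had 239 tags at HIST1H4B, 280 at HIST1H4C, 273 at HIST1H4D, 335 at HIST1H4E, 176 at HIST1H4H, 196 at HIST1H4I, 373 at HIST1H4J, 323 at HIST1H4K and 243 at HIST1H4L. HIST1H4K was the densest of all histone regions (349 tags per kb). On chromosome 1, HIST2H4B had 492 tags and HIST2H4A 404. Low values came from cluster III instead, with 23 tags at HIST1H4A and 28 at the pseudogene HIST1H4PS1. No region of cluster II has under 35 tags, so values this low could not occur there. The third H4 region of cluster III, at HIST4H4 on chromosome 12, had 395.

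H4 regions also sat differently on their genes than regions of the other histone classes. The counts below were not taken over all regions, so whether the H4 placement is unusual among promoters is not shown. In the authors' signed distance, values increase along the direction of transcription for all 612 minus-strand and all 604 plus-strand pairs of regions that share a transcript. Negative values were therefore read as lying before the start, although of 311 regions in the authors' upstream class only 211 (67.8%) had one. Of the 14 H4 regions 11 had negative distances (median -39 bp) and 13 lay within 100 bp of the start. Of the 15 H3 regions 1 was negative (median 168 bp) and 6 lay within 100 bp. These H3 counts include both HIST1H3J regions, whose distances cannot be from 1 start. Of the 14 H2B regions 3 were negative (median 104 bp) and 6 lay within 100 bp. For the 10 H2A regions these counts were 3 (median 10.5 bp) and 4. The 4 H1 regions lay 144 to 1195 bp beyond the start. From which point of a region the distance was taken is not stated.

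H2A genes supplied 10 regions at 9 genes, all in cluster II. The highest tagcount of all histone regions was at HIST2H2AC (chromosome 1, 149857024 to 149860279; 539 tags over 3256 bp, 166 per kb). HIST2H2AA3 had 444 tags over 2830 bp and HIST2H2AA4 298 over 1855 bp. The H2A regions outside HIST2 were lower, from 49 tags at one of the 2 regions of HIST1H2AD to 178 at HIST1H2AJ. HIST3H2A, on another part of chromosome 1, had 119. HIST2H2AC was also the widest histone region, and no H2A region exceeded 166 tags per kb.

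H2B genes supplied 14 regions at 13 names, 11 in cluster II and 3 in cluster III. HIST1H2BC (chromosome 6, 26122959 to 26124667) led with 318 tags, followed by HIST1H2BG with 238 and HIST1H2BD with 160. The lowest were HIST3H2BB with 24 (cluster III), HIST1H2BE with 38 and one of the 2 HIST1H2BK regions with 41. The other HIST1H2BK region had 105. Apart from HIST1H2BC, the cluster II regions of this class lay between 95.3 and 129 tags per kb, below the lowest H4 value of 177.

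H3 genes, which encode the protein that carries the mark, had modest counts. Their 15 regions ranged from 26 tags at the pseudogene HIST2H3DP1 to 204 at HIST2H3A, with a median of 65. HIST1H3B had 158, HIST1H3C 115 and HIST1H3H 100. Some gene names had 2 regions each, namely HIST2H3D (40 and 47 tags), HIST1H3G (79 and 65) and HIST1H3J (76 and 56). The HIST1H3J regions, on the minus strand, had distances of -10 bp (27858134 to 27858827) and 70 bp (27860650 to 27861090). That order is not possible from 1 start, so the second may belong to a neighbouring gene. It is counted here by the name given. In tags per kb the 12 cluster II regions of H3 genes lay close together, between 102 and 132. Linker histone H1 genes had 4 regions. HIST1H1B (H1.5) had 2 of them, with 126 and 36 tags, HIST1H1C (H1.2) 1 with 78, and HIST1H1E (H1.4) 1 with 47, in cluster III.

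**Figure D3:**
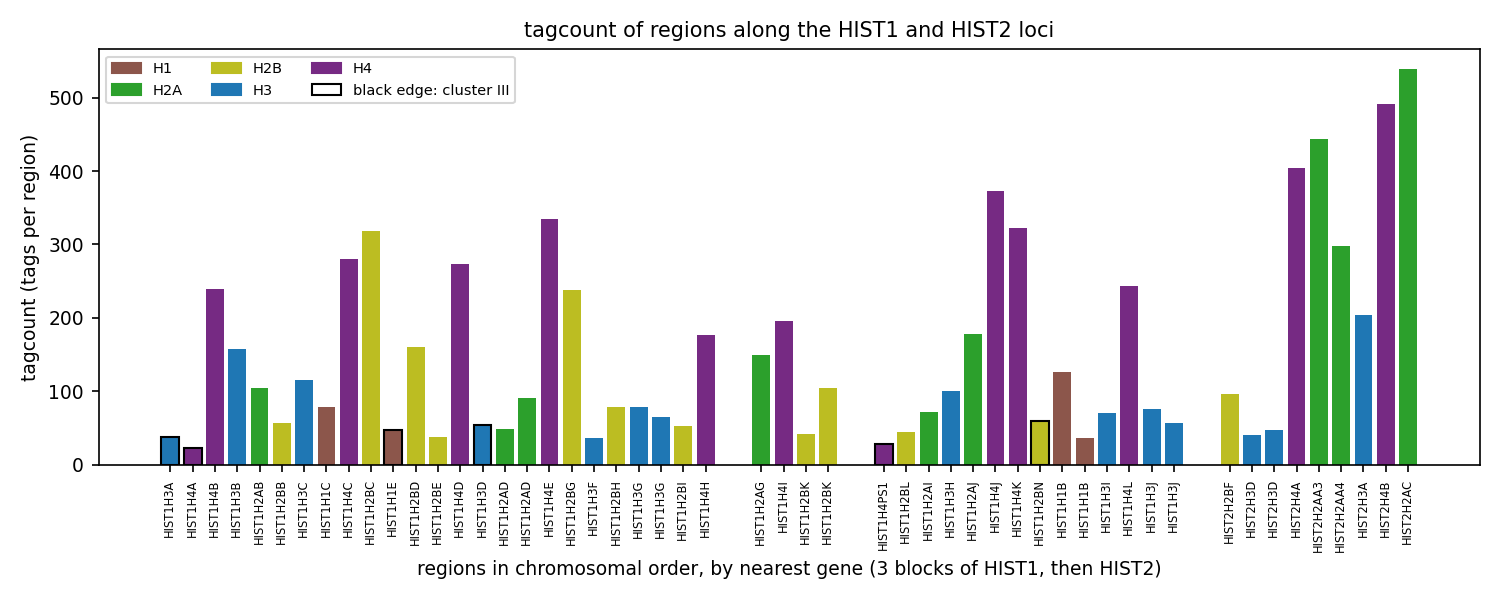
Tagcount (y axis, tags per region) of the histone gene regions in chromosomal order along the 3 blocks of HIST1 on chromosome 6 and the main HIST2 block on chromosome 1, coloured by histone class, with a black edge for cluster III. Along HIST1 the H4 regions of cluster II (purple) stood at 176 to 373 tags, with HIST1H2BC (318 tags) above its neighbour HIST1H4C (280 tags), and in HIST2 the H2A regions at HIST2H2AA3 and HIST2H2AC stood at 444 and 539 tags beside H4 regions at 404 and 492.

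Some of these genes are copies of each other, and how reads that align to several copies were placed is not stated. The windows of HIST2H4A and HIST2H4B were identical at 300 of 300 positions. Those of HIST2H2AA3 and HIST2H2AA4 matched at 299 of 299 positions once shifted, and those of HIST1H4J and HIST1H4K at 295 of 300. Counts within each of these pairs cannot be divided with certainty. Without the HIST2 genes the cluster II share was 70.9% (all regions 23.7%), and 1 of 29 non-H4 regions reached the lowest H4 density.

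Cluster II gave each region a second interval that overlapped the first, from a source that is not named. At histone genes the second interval was often much wider. It was at least 2 times as wide as the first at 21 of 48 histone regions (43.8%, 29.5 to 58.8), against 9.87% of all cluster II regions. Without shared second intervals it was at 8 of 32 (25%, 11.5 to 43.4), against 7.76%. Median widths were 936 bp for the first and 1709 bp for the second interval, and the median of their ratio was 1.87, against 1.29 over cluster II. Of the histone regions 16 shared a second interval with a neighbour (33.3%, 20.4 to 48.4), against 2.96% of cluster II. For HIST2H3D, HIST1H2AD, HIST1H3G, HIST1H2BK and HIST1H1B the second interval joined both regions of 1 gene. It also joined HIST2H2AA4 with HIST2H3A (3904 bp), HIST1H2BL with HIST1H2AI (1664 bp), HIST1H2BB with U91328.2, and HIST2H2BF with a neighbouring region of another name. Of 31 cases in all of cluster II where a second interval took up an additional region, 7 joined histone gene regions to each other.

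The widening went with low tag counts in the first interval. Among promoter-class regions with under 100 tags, the median ratio of second to first width was 2.81 at 20 histone regions and 1.42 at all 988. At 100 tags or more it was 1.28 at 26 histone regions and 1.21 at all 515. By class, the median ratio was 1.24 for H4, 1.82 for H2A, 2.14 for H3, 2.88 for H2B and 2.84 for H1 regions. The largest ratio was at the smaller HIST1H1B region, from 352 bp to 2836 bp (8.06 times), but this second interval spans both HIST1H1B regions, whose first intervals sum to 1437 bp. Among second intervals that were not shared, that of a HIST1H3J region was the widest relative to the first, from 441 bp to 2564 bp (5.81 times). This was the region at 70 bp, which may belong to a neighbouring gene. At HIST1H2BH and HIST1H4I the second interval was narrower than the first, by ratios of 0.599 and 0.646. Without shared second intervals the median ratio was 1.28 at histone regions and 1.28 over cluster II.

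**Figure D4:**
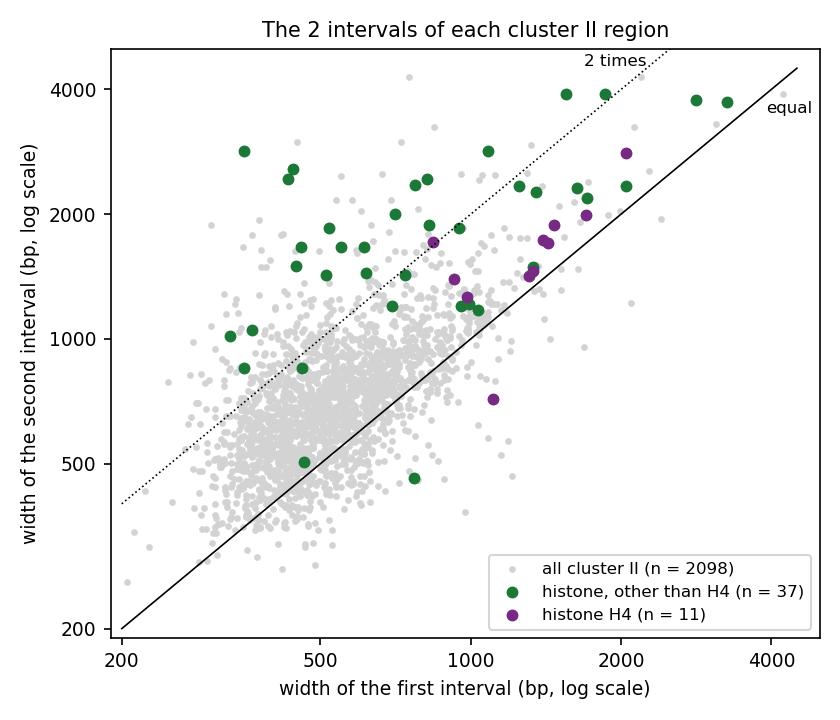
Width of the second interval (y axis, bp, log scale) against the first (x axis, bp, log scale) for all 2098 cluster II regions (grey), 37 histone regions other than H4 (green) and 11 H4 regions (purple). The solid line marks equal width and the dotted line a second interval 2 times as wide, a line that 21 of the 48 histone regions reach.

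The 17 histone regions of cluster III had MACS tags that exceeded tagcount in every case, as did 98.4% of all cluster III regions. Their ratio of MACS tags to tagcount plus 1 had a median of 1.77 (range 1.14 to 5.18), against 2 over all of cluster III. Cluster III differs in class from the histone regions, and within the promoter class the median was 1.62 at 15 histone regions (interval of the median 1.53 to 1.86) and 1.72 at all 2708. A ratio of 4 was reached by 1 of the 17 (5.88%, 0.149 to 28.7), against 15.3% of cluster III, and by 0 of the 15 promoter-class histone regions (a share of up to 21.8%), against 0.923% of all promoter-class regions of the cluster. The depths of the libraries are unknown, so a ratio has no meaning on its own and was only set beside that of other regions.

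HIST4H4, an H4 gene that lies outside the large clusters, had the most MACS tags of the 18 histone regions that carry them (565; cluster II has no such column; chromosome 12, 14921894 to 14924585). Its tagcount was 395 and its ratio 1.43, among the lowest 3. In this region of 2692 bp both counts were high. The histone region next by MACS tags, at H3F3C (394), lies on the same chromosome, and copy number was not tested. The H2A variant gene H2AFJ, the next RefSeq histone gene on that chromosome, was named by no region. The other clustered genes of cluster III were weaker: HIST1H2BN had 108 MACS tags and a tagcount of 60, HIST1H1E 107 and 47 (ratio 2.23), HIST1H3D 86 and 54, HIST1H3A 50 and 38 (ratio 1.28), and HIST1H4A 44 and 23. The pseudogenes HIST2H2BA (101 and 65), HIST2H3DP1 (58 and 26) and HIST1H4PS1 (47 and 28) lay in the same range, and HIST3H2BB had 40 and 24.

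**Figure D5:**
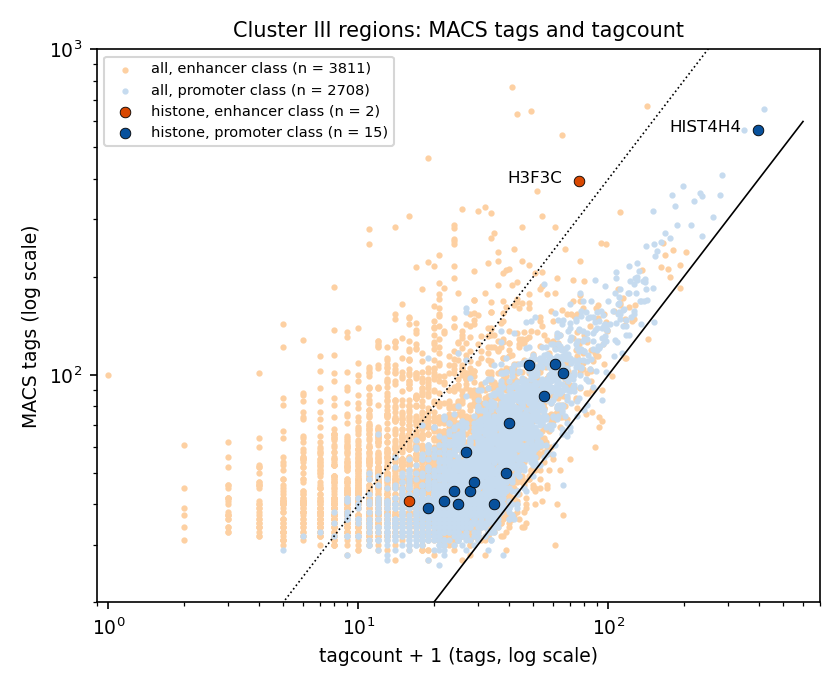
MACS tags (y axis, log scale) against tagcount plus 1 (x axis, log scale) for all cluster III regions (pale, by class) and the 17 histone regions (dark). The solid line marks equal values and the dotted line a ratio of 4. H3F3C, an enhancer-class region, lies above the dotted line at 394 MACS tags and a tagcount of 75.

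Regions at variant names had tag counts near those of all regions. The 9 regions ranged from 15 to 75 (median 34), beside a median of 32 over all 8819 regions and 79 over the 43 HIST1 regions, of which 37 were in cluster II, where no region has under 35 tags. H3F3A, a source of the replacement histone H3.3, had 27 tags and 44 MACS tags at its start (chromosome 1, 226249600 to 226250227). The region named for H3F3C, which encodes the H3.5 protein, was intergenic and 18627 bp from the start (chromosome 12, 31925728 to 31927387). It had 394 MACS tags and 75 tags by tagcount, the highest ratio of the 17 (5.18), so its position and its ratio differed from those at the gene starts. H1F0, the gene of the linker histone H1.0 of resting cells, had 2 regions, one at -2702 bp (71 MACS tags, 39 tags) and one 210 bp beyond the start (41 and 21). H1FX (H1.10) had 39 MACS tags and 18 tags, and its antisense neighbour H1FX-AS1 40 and 34, the lowest ratio of all (1.14). The 2 regions are neighbours on chromosome 3 and do not overlap (129032934 to 129033438 at H1FX-AS1, 129034968 to 129035456 at H1FX). Reads from both strands enter a ChIP region, so neither can be assigned to the gene of 1 strand.

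The single cluster I region was at a start of H2AFY, the gene of macroH2A1 (chromosome 5, 134735640 to 134735984). It had 37 MACS tags in the library without ATRA and a tagcount of 40. The H2A.Z pseudogene names H2AFZP5 (cluster II, 57 tags) and H2AFZP3 (cluster III, 41 MACS tags, 15 tags, ratio 2.56) were only the nearest names to distant regions. Of 17 protein-coding variant genes in RefSeq 5 were named (29.4%, 10.3 to 56), an interval that holds the 22.4% of all protein-coding genes, and CENPA, the gene of the centromeric H3, H2AFX, H2AFZ, H2AFV and H3F3B were among the 12 that were not.

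Of 71 protein-coding HIST genes in RefSeq, 48 were named by a region (67.6%, 55.5 to 78.2), against 22.4% of all 20033 protein-coding RefSeq genes. By class these were 13 of 15 H4, 11 of 15 H3, 12 of 18 H2B, 9 of 17 H2A and 3 of 6 H1 genes. Being unnamed does not show that a gene lacked the mark, because each region named 1 gene and divergent neighbours share promoters. Of the 23 unnamed genes 14 stood next to a named histone gene at 5 kb or less in RefSeq, such as HIST1H2AC and HIST2H2BE. Unnamed genes also included HIST1H1T, HIST1H2AA and HIST1H2BA, which are known from the testis.

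Genes that supply or handle histones were also looked up. Of 57 such genes 15 were named (26.3%, 15.5 to 39.7), near the 22.4% of all protein-coding genes, by 17 regions, all of promoter class and all within 1 kb of a start. Tagcount had a median of 43, beside 40 over all promoter-class regions. Cluster II held 7 of the 17 and cluster III 10, beside 35.5% and 63.9% of all promoter-class regions, values near that background. Among 28 genes of histone gene transcription and transcript end processing, 8 were named. SYMPK, a scaffold of the cleavage complex, had 212 tags, LSM10, part of the U7 particle, 67, and CTIF 41, while GON4L had 35, all in cluster II. NFYC, a subunit of the factor that binds CCAAT, had 95 MACS tags and 50 tags, SRRT 89 and 52, CPSF3, the cleavage enzyme, 34 and 21, and TUT7, a uridylyl transferase that the files call ZCCHC6, 40 and 25, in cluster III. NPAT, SLBP and CASP8AP2, central to histone gene expression, were named by no region.

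Among 29 chaperone and deposition genes, 7 were named. SRCAP, the ATPase that exchanges H2A.Z, had 2 regions, one in cluster II with 107 tags and one in cluster III with 86 MACS tags and 36 tags. VPS72, a subunit of the same complex, had 55 tags and the importin gene IPO4 39, both in cluster II. In cluster III, NASP, a chaperone of H3 and H4, had 2 regions with 59 and 44 MACS tags (tagcount 49 and 31). ANP32E, which removes H2A.Z, had 59 (43), SUPT16H of the FACT complex 58 (33), and MIS18A, needed to load CENPA, 58 (49). SYMPK was the only gene of either list to reach the lowest H4 tagcount of cluster II (176). Whether the regions of histone genes and of these genes depend on PRMT6 was not tested here.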

How the data were processed

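H3R2me2a regions from 2 libraries of control NT2/D1 cells, 1 per condition, were described from 5 lists. The submitters' processing notes name the tools bcl2fastq, deepTools, Bowtie2 and MACS 1.4 and the build hg19 (GRCh37), with no role for each. The deposited values are unscaled whole-number tag counts, given as MACS tags for clusters I and III and as tagcount, per the file headers, for the lists of promoter and enhancer regions, beside signed distances in bp. How clusters and classes were made, the peak calling control and the depth were not given in the sources used here.

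Lists were joined on chromosome, start and stop with pandas 2.3.3 (Python 3.11.15). Shares carry exact Clopper-Pearson 95% intervals and medians exact binomial intervals (scipy 1.17.1), tested on simulated independent draws. No p-value was computed, since no condition has replicates. The ratio of MACS tags to tagcount used a pseudocount of 1. Members and gene lists were chosen with earlier results of these data known. Named genes are every cluster I, variant-named and enhancer-class member, genes with 2 or more regions, the 10 highest by tagcount and by MACS tags, the 3 highest and lowest ratios, and the named members of the supply list; others were added after their values were seen. RefSeq tables (GRCh38.p14) gave names, gene order and promoter windows only, and their coordinates were never compared with hg19 regions. Of 6698 gene names 5298 (79.1%) matched RefSeq by current or older symbol. Protein sequences were not used here. The other 20 samples were not analysed here.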

Additional observations from a re-analysis of the deposited data

How the results depend on the processing

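No paired analysis was possible because the lists come from 1 library per condition, and leaving out a replicate was not possible for the same reason. Of 53 alternative values over 11 results, 39 stayed within the interval of the reported value, within 1.5 times a reported count or, per kb, on the same side of all regions. With regions under their list's median tagcount left out, the cluster II share of histone regions moved to 86.5% (all regions 44.4%). The cluster III share then moved to 11.5% (all regions 51.2%). Without chromosome 6 both shares moved to 47.8% (all regions 23.4% and 74.3%). Among regions with 35 tags or more they moved to 84.2% (all regions 51.8%) and 14% (all regions 43.2%). That limit was added after seeing the data because it is the lowest tagcount of cluster II. With HIST-named genes only, the cluster I share was 0%. Per kb of width the median of cluster II promoter-class histone regions was 117, below the 138 of all. A ratio of 2 was reached by 5 cluster III histone regions (50.1% of all) and a ratio of 8 by 0 (3.3% of all). By tagcount 7 non-H4 regions reached the lowest H4 region. The median width ratio was 1.28 without shared second intervals, 1.28 at 100 tags or more and 2.78 below 100. The counts of non-H4 regions and the width ratios, with their alternatives, were added after seeing the data. Unknown depth limits every comparison between the libraries.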

Other observations

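The promoter windows of named histone genes were poorer in G and C than those of all genes. Over 47 windows the median was 44.7%, against 58.3% over 27305. The medians were 41.3% for H3, 41.7% for H2B, 44.7% for H2A, 48% for H4 and 51.7% for H1 genes, while the windows of H1FX (68.7%) and H2AFY (77.3%) were richer than the median of all genes. Whether base composition bears on the tag counts was not tested.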
